A study of Rattus norvegicus with 9 samples.

Results

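Laminins and the proteins that bind them in basement membranes were followed in H9c2(2-1) cells, a myoblast line from embryonic rat heart (BD1X strain, wild type). The 10 genes were named by function, out of 36856 genes in the table: the laminin chains Lamb2, Lamb1, Lamc1, Lama2, Lama4 and Lama5, the nidogens Nid1 and Nid2, and the heparan sulfate proteoglycans Hspg2 and Agrn. The set was chosen by role but with results of these libraries known, and which measured values entered the choice is not recorded. ESW against Control was treated as the comparison it was selected on, because Lamb2 is among the 6 genes with the smallest p there, and its values are given as a description, with no p. RNA was sequenced from 9 libraries in 3 groups of 3. ESW cells received energized structured water and CW cells received control water, each diluted to 0.01 in the medium. Exposure lasted 72 h, with fresh medium every 24 h, and Control cells were left untreated in normal growth medium. All groups were the same cell line, grown in medium with serum and antibiotics.

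A laminin is a trimer of 1 alpha, 1 beta and 1 gamma chain, assembled in the cell before secretion, and it polymerises into the sheet on which a basement membrane is built. Nidogens and perlecan (Hspg2) connect that sheet to the type IV collagen network, and agrin (Agrn) ties it to dystroglycan at the cell surface. In muscle, basement membranes anchor the fibre through dystroglycan and integrins, and the beta 2 chain is concentrated at the neuromuscular junction.

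The libraries held 26748673 to 48574618 estimated reads, and the 10 genes took 0.445% to 0.529% of them. Reads per gene were also scaled to CPM, which puts all libraries on the same total. On the first 2 principal components of log2 CPM, Control replicate 1 stood apart from the other Control libraries, and the values without it are given where they change a call. The myoblast label was checked against 8 markers: Vim, Ncam1, Cdh15 (29.8 to 36.7 CPM) and Myod1 (7.59 to 11.2 CPM) were present. Des and Myog were low, at 3.88 to 6.65 and 2.00 to 3.58 CPM, and Myf5 and Pax7 were under 1 CPM in every library. Endothelial and epithelial cells, which lay down much basement membrane elsewhere, left little trace. Of their markers 7 of 8 and 6 of 7 were under 1 CPM in every library, the exceptions being Tek and Krt8. The same held for 3 of 4 Schwann cell and 4 of 6 cardiomyocyte markers, with Tnnt2 at 51.4 to 62.3 CPM. Of 9 fibroblast and smooth muscle markers only 3 were under 1 CPM, and Acta2 had 7520.5 to 9053.8 CPM. In such bulk RNA a change in the number of cells of a type and a change in RNA per cell cannot be told apart.

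The order of the levels is given per transcript length, in TPM, the deposited unit that divides reads by effective length and scales each library to the same total, summed per gene. Lamc1, the gamma 1 chain shared by most laminins, was highest, at 271 ± 20.3 TPM in ESW, 246 ± 6.37 in CW and 247 ± 11.7 in Control (SD, n = 3 each). Nid1, nidogen 1, followed at 243 ± 10.3 TPM in ESW, 216 ± 7.35 in CW and 221 ± 16.7 in Control, and it lay below Lamc1 in 9 of 9 libraries. Lamb1, the beta 1 chain, had 121 ± 9.05 TPM in ESW, 109 ± 3.72 in CW and 109.5 ± 5.63 in Control.

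The next genes lay close together. Hspg2 had 113 ± 8.35 TPM in ESW, 106 ± 2.96 in CW and 97.1 ± 10.9 in Control, and Lama5, the alpha 5 chain, had 111 ± 7.17, 103 ± 2.68 and 95.3 ± 7.53 in the same groups. These 2 ranges overlapped almost wholly, and Hspg2 was the higher in 7 of 9 libraries. Nid2, nidogen 2, at 93.1 ± 5.40 TPM in ESW, 87.1 ± 2.15 in CW and 91.3 ± 4.90 in Control, lay close to Lamb2, the beta 2 chain, at 94.02 ± 7.09, 82.3 ± 2.34 and 78.4 ± 2.63 in the same groups. Nid2 was above Lamb2 in every CW and Control library, whereas in ESW the 2 genes overlapped. Lama4, the alpha 4 chain, and Agrn were far below, with 16.5 to 19.8 and 10.3 to 12.3 TPM over the 9 libraries.

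Lama2, the alpha chain of the main laminin of mature skeletal and heart muscle, was at the limit of detection. It had 0, 1 and 0 reads in ESW, 2, 3 and 2 in CW and 2, 4 and 2 in Control, 16 in all. A count of 0 allows up to 0.0825 and 0.0831 CPM in ESW replicates 1 and 3, taken as 3 reads of each unscaled library and covering counting error only. Its reads were too few to be tested in any group, so that 9 of the 10 genes entered the tests. The other laminin chains followed the same division: Lama3 reached 8.14 to 10.4 TPM, Lamb3 stayed under 1 TPM, and Lama1 and Lamc3 had 8 and 27 reads over all libraries.

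Promoter sequence is shown for Lamc1, Lama4 and Lama5, the chains with a single transcript and a start site that is the same in the gene table and the promoter table (RefSeq, GRCr8), to set side by side a high, a low and an intermediate chain. Each run is the 250 bases before the start, 5′ to 3′ on the gene's strand, with GC boxes (GGGCGG on either strand, overlaps counted) in capitals.
Lamc1, chr13:68051987-68052236, minus strand: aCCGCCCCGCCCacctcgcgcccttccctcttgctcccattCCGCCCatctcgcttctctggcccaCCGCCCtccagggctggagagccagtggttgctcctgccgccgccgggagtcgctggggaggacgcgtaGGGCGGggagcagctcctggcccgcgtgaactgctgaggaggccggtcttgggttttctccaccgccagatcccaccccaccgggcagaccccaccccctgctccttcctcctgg
Lama4, chr20:43946648-43946897, plus strand: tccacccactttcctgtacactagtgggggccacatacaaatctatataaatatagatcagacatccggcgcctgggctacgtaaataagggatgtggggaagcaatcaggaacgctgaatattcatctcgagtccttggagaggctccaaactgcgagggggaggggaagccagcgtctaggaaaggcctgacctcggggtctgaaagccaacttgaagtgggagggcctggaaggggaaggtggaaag
Lama5, chr3:187695975-187696224, minus strand: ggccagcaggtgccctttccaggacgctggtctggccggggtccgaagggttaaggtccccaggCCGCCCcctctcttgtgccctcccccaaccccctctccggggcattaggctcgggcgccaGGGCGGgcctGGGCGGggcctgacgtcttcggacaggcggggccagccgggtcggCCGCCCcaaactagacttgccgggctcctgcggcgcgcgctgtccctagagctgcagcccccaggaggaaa
Lamc1 held 5 GC boxes and Lama5 held 4, with 71.2% and 72.8% G and C, whereas Lama4 held 0 GC boxes at 53.2%. Lama4 carried 1 match to the TATA box letters (TATAAA), in the 5′ part of the window, far from the start. A GC box is present in 30.5% and TATAAA in 12.9% of 33469 promoter windows of the same length. The motifs CCAAT and TGANTCA (the AP-1 site) were searched on both strands too and are not in these 3 windows; they occur in 34% and 6.34% of all windows. A match describes letters, not a bound factor. Promoter entries were found for 8 of the 10 genes.

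**Figure D1:**
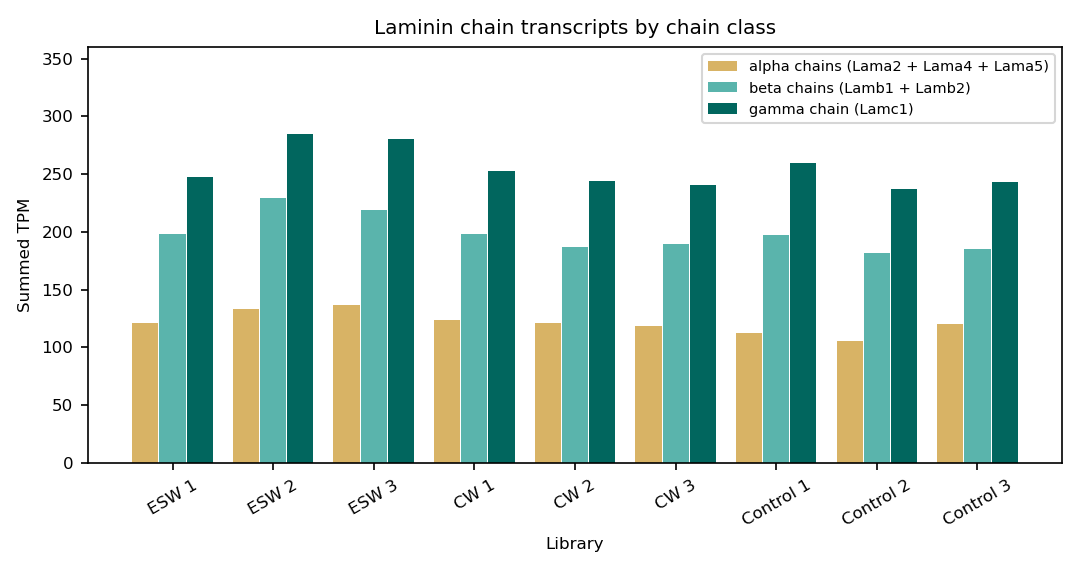
Summed TPM (vertical axis) of the alpha, beta and gamma laminin chains of the gene set in each of the 9 libraries (horizontal axis). In every library the gamma bar is the tallest and the alpha bar the shortest.

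Summed by chain class, the beta chains came to 215 ± 16.02 TPM in ESW, 191 ± 5.84 in CW and 188 ± 8.26 in Control. The alpha chains had 130.2 ± 8.37 TPM in ESW, 121 ± 2.93 in CW and 113 ± 7.69 in Control, of which Lama5 made up 85.4%, 85.4% and 84.6%. Per gamma transcript there were 0.794 ± 0.0138 beta transcripts in ESW, 0.778 ± 0.0120 in CW and 0.762 ± 0.00378 in Control. All 3 groups thus had fewer alpha than beta and fewer beta than gamma transcripts.

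The 2 beta chains can take the same place in a trimer, so their ratio was followed. Lamb2 stood to Lamb1 as 0.768, 0.766 and 0.791 in ESW, 0.746, 0.749 and 0.771 in CW and 0.702, 0.725 and 0.721 in Control, in TPM. The means were 0.775 ± 0.0140 in ESW, 0.755 ± 0.0137 in CW and 0.716 ± 0.0125 in Control. CW lay above Control in every library, with an exact two-sided permutation p of 0.1, which is the smallest that 3 against 3 libraries can give, and 0.2 when adjusted over both tests. ESW and CW overlapped, with an exact permutation p of 0.3 and an adjusted p of 0.3. ESW lay above Control in every library, which is given as a description. Both tests share libraries with that comparison, on which Lamb2 may have been chosen, so neither p is independent support.

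**Figure D2:**
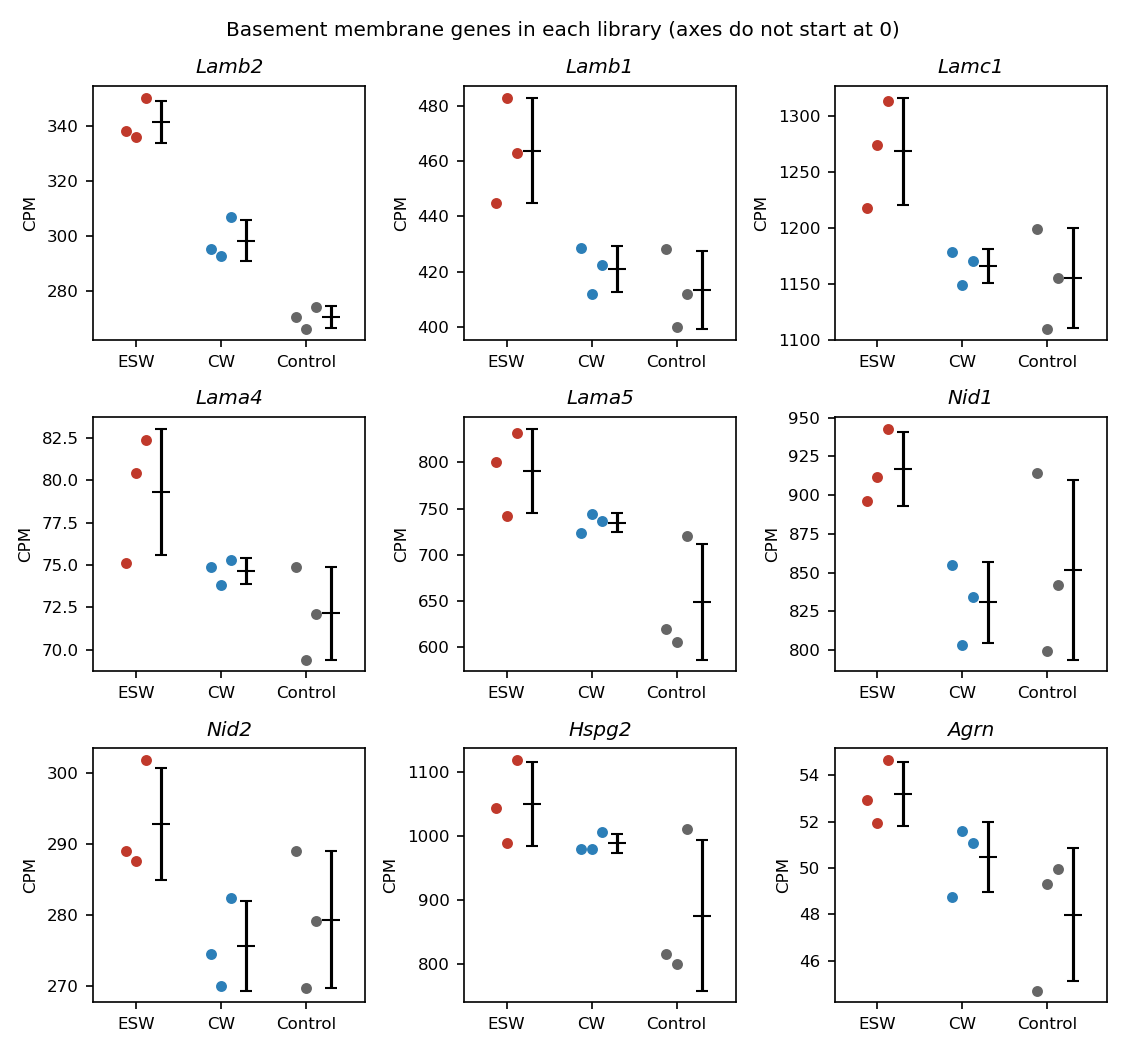
CPM (vertical axis, not from 0) of the 9 tested genes in the 3 ESW, 3 CW and 3 Control libraries, points in the order of replicates 1 to 3, with mean and SD as black bars. Lamb2 shows 3 separate groups, and for Lama5 and Hspg2 Control replicate 3 lies near CW, away from the other Control libraries.

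Between libraries the genes were compared in CPM after TMM scaling, a unit without a correction for length that does not serve to rank genes against each other. Lamb2 had 338, 336 and 351 CPM in ESW, 295, 293 and 307 in CW and 271, 266 and 274 in Control. The 3 groups did not overlap, ESW being highest and Control lowest. Lamb1 had 445, 483 and 463 CPM in ESW, 429, 412 and 422 in CW and 428, 400.2 and 412 in Control. For Lamb1 ESW lay above both other groups, which overlapped. Lamc1 had 1218, 1275 and 1313 CPM in ESW, 1179, 1149 and 1170.3 in CW and 1199, 1110.0 and 1156 in Control, the same arrangement as for Lamb1.

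Lama5 had 800.2, 742 and 832 CPM in ESW, 724, 744 and 737 in CW and 619.6, 605 and 720.3 in Control. ESW replicate 2 fell within CW, and Control replicate 3 stood above the other Control libraries while remaining below every CW library. Hspg2 had 1044, 989 and 1119.9 CPM in ESW, 980.4, 979.5 and 1006 in CW and 816, 799 and 1011 in Control, so that Control replicate 3 lay within ESW. Lama4 had 75.1, 80.4 and 82.4 CPM in ESW, 74.9, 73.8 and 75.3 in CW and 74.9, 69.4 and 72.1 in Control. Here ESW replicate 1 lay within CW and just above the highest Control library.

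Nid1 had 896, 911 and 943 CPM in ESW, 855, 803 and 834 in CW and 914, 799 and 842 in Control. ESW was separate from CW but not from Control, whose replicate 1 was higher than 2 of the ESW libraries. Nid2 had 289, 288 and 302 CPM in ESW, 274, 270.0 and 282 in CW and 289, 269.8 and 279 in Control, with the same overlap. Agrn had 52.9, 51.9 and 54.7 CPM in ESW, 48.7, 51.6 and 51.1 in CW and 44.7, 49.3 and 49.9 in Control, and its ESW libraries lay above all others.

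In ESW against CW, the comparison of the 2 waters, the 2 laminin beta chains were higher in ESW. Lamb2 was 1.15-fold higher, with a log2 fold change of 0.20 (SE 0.04, 95% interval 0.12 to 0.27, adjusted p = 0.0035, edgeR quasi-likelihood test with Benjamini-Hochberg adjustment over 14706 genes). Lamb1 rose with a log2 fold change of 0.14 (SE 0.04, interval 0.06 to 0.22, adjusted p = 0.0344 in the same edgeR fit). These were 2 of the 9 tested genes, against 4.15% of all genes called higher and 3.99% called lower (8.14% in all). The ESW libraries are also those of ESW against Control, so that a choice of Lamb2 on that comparison favours a high value and a small p here, and neither Lamb2 nor the count of 2 is independent support. The other 7 had positive log2 fold changes of 0.07 to 0.14 and did not pass.

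Nid1 and Lamc1 came closest to the threshold, at 0.14 and 0.12 (edgeR adjusted p = 0.0519 and 0.0560). For Lama5, Hspg2, Lama4, Nid2 and Agrn the edgeR adjusted p ran from 0.170 to 0.438. Their intervals reached from -0.05 up to 0.22 on the log2 scale. The libraries of ESW and CW did not overlap, with ESW higher, for 6 of the 9 genes and for 14.9% of all genes. The median log2 fold change of the 9 genes was 0.11, beside 0.00 for all genes.

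Lamb1 lost its call in 8 of 20 alternative settings. It did so without ESW replicate 2, ESW replicate 3, CW replicate 2 or CW replicate 3 (edgeR adjusted p = 0.156, 0.118, 0.145 and 0.103). The others were offsets for effective length (0.0590), a replicate block and the limma fits on TPM (0.197 and 0.188). Without Control replicate 1 the calls were Lamb1, Lamb2, Lamc1 and Nid1. Lamb2 kept its call in 18 of 20 alternative settings, losing it in the same limma fits (adjusted p = 0.116 and 0.109).

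**Figure D3:**
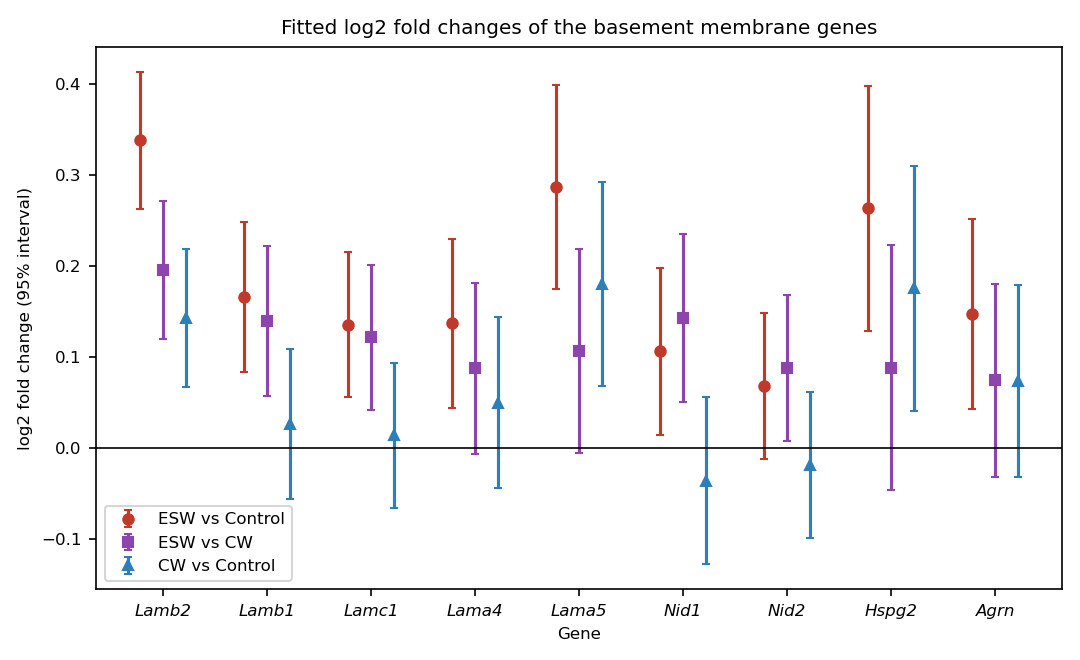
Log2 fold change with its 95% interval (vertical axis) for the 9 tested genes (horizontal axis) in the 3 comparisons between ESW, CW and Control, each marked by its own colour and symbol. Lamb2, Lama5 and Hspg2 show CW against Control values of 0.14 to 0.18, while those of Lamb1, Lamc1, Nid1 and Nid2 lie between -0.04 and 0.03.

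In CW against Control, the comparison of control water with untreated cells, 0 of the 9 tested genes were called by edgeR. Of all genes 0.177% were called (0.0272% higher and 0.15% lower). At an unadjusted edgeR p under 0.05 there were 3 of the 9, beside 1452 of all 14706 genes. The 3 were Lamb2, Lama5 and Hspg2, with log2 fold changes of 0.14, 0.18 and 0.18 (SE 0.04, 0.05 and 0.06; adjusted p = 0.1425, 0.239 and 0.349 in the edgeR fit). DESeq2 called 1 gene, Lamb2 (adjusted p = 0.0131), and limma-voom called 0. Without Control replicate 3, Lama5 and Hspg2 passed in edgeR, at 0.26 and 0.29 (adjusted p = 0.0118 and 0.0071). Lamb1, Lamc1, Nid1 and Nid2 had values of 0.03, 0.01, -0.04 and -0.02, and the sign of each of these changed in at least 1 alternative. CW lay above Control in every library for 2 genes, Lamb2 and Lama5, and for 7.13% of all genes.

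In ESW against Control, which bears on the choice of the genes and is described only, all 9 tested genes had positive log2 fold changes, from 0.07 for Nid2 to 0.34 for Lamb2 (median 0.15, beside -0.01 for all genes). Lamb2 was 1.26-fold, Lama5 1.22-fold, Hspg2 1.20-fold, Lamb1 1.12-fold and Lamc1 1.098-fold higher in ESW, and these 5 were below the threshold of the fit, where 4.76% of all genes were called higher and 3.28% lower (8.04% in all). DESeq2 also called 5, with Lama4 in place of Hspg2, and without Control replicate 1 the count was 7. Lama4, Agrn, Nid1 and Nid2, at 0.14, 0.15, 0.11 and 0.07, were not. The groups were separate for 6 genes, and for 13.3% of all genes ESW lay above Control in this way. Both comparisons with ESW share its libraries, and both with Control share those of Control, so that their values are set side by side and not counted as separate evidence.

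In both comparisons with Control a technical value differed along with Lamb2, Lama5 and Hspg2. Relative to all genes it also differed, to a lesser degree, for Nid2, Agrn and Lamb1. The effective length that Salmon gave a gene, its length corrected per library, differed between libraries. For Lamb2, and likewise for Lamb1, Lama4, Nid1, Nid2 and Hspg2, it exceeded the mean annotated length in every library. For Lamb2, whose transcripts average 5597 bases, it was 6298, 5697 and 6028 bases in ESW, 5937, 6081 and 6033 in CW and 5681, 5745 and 5858 in Control. For Lama5 (11307 bases) it was 12427, 11029 and 11804 in ESW, 11591, 11955 and 11859 in CW and 11269, 11241 and 11521 in Control. Both genes thus had shorter effective lengths in Control than in CW. The log2 difference of CW against Control in effective length was 0.0627 for Lamb2, 0.0571 for Lama5 and 0.0485 for Hspg2, beside -0.0198 for all genes. It was 0.0382 for Nid2, 0.0352 for Agrn and 0.0242 for Lamb1, whose log2 fold changes in level were -0.02, 0.07 and 0.03. Lamc1, Lama4 and Nid1 had differences in effective length of 0.009, 0.0076 and -0.0148. In ESW against Control the difference was 0.0593 for Lamb2, 0.0495 for Lama5 and 0.0343 for Hspg2, beside -0.0323 for all genes. There it was 0.0221 for Nid2, 0.0134 for Agrn and 0.0008 for Lamb1, and -0.0188, -0.0234 and -0.0498 for Lamc1, Lama4 and Nid1. Between ESW and CW the log2 difference in effective length was -0.0034 for Lamb2, -0.0076 for Lama5 and -0.0142 for Hspg2, beside -0.0105 for all genes. Hspg2 averaged 15407 ± 837 bases in ESW, 15545 ± 225 in CW and 15031 ± 234 in Control, and Lamb1 averaged 6309 ± 52.3, 6412 ± 15.4 and 6305 ± 42.3 in the same groups.

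**Figure D4:**
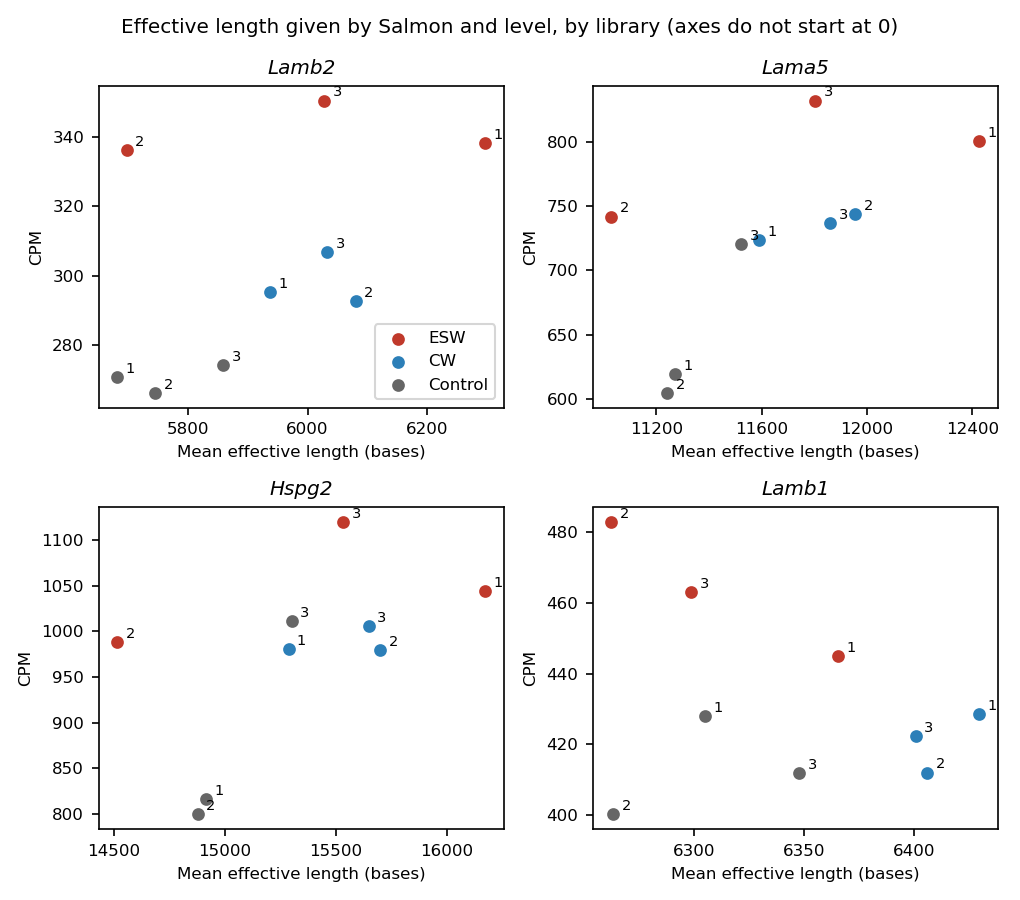
CPM (vertical axis) against the mean effective length in bases (horizontal axis) for Lamb2, Lama5, Hspg2 and Lamb1, with 1 point per library, numbered by replicate; axes do not start at 0. For Lamb2, Lama5 and Hspg2 most Control points lie at the lower left, whereas ESW replicate 2, with a short effective length, lies above all Control points for Lamb2 and Lama5.

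With the effective lengths entered as offsets in edgeR, the log2 fold change of CW against Control became 0.06 for Lamb2, 0.11 for Lama5 and 0.11 for Hspg2. Under the same offsets ESW against CW was 0.19 for Lamb2 (edgeR adjusted p = 0.0233), 0.16 for Nid1 (0.0385) and 0.15 for Lamb1 (0.0590). ESW against Control was then 0.25 for Lamb2, 0.21 for Lama5 and 0.20 for Hspg2, with 2 of the 9 genes, Lamb2 and Lama5, below the threshold. Of the 9 genes, 8 were in the longest of 5 equal classes of tested genes (5128 bases and more), in which the median log2 fold change was -0.04 for ESW against CW and 0.01 for CW against Control. After a trend over gene length was removed in each library, 6 of the 9 genes were called in ESW against CW. Among them were Lama5 and Hspg2 at 0.22 and 0.27 (edgeR adjusted p = 0.0037 and 0.0034), each called in only 1 of 20 alternative settings. The 4.15% of all genes called higher belongs to the main fit and not to this setting. Over the alternatives that kept every library, 0 to 1621 of all genes were called in ESW against CW.

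Some markers of fibroblasts and smooth muscle were also higher in ESW. The 9 markers summed to 10460 to 10620 CPM in ESW, 8959 to 9588 in CW and 9362 to 9417 in Control, mostly Acta2, smooth muscle actin, at 8919 CPM on average in ESW, 7902 in CW and 7930.0 in Control. Against CW edgeR called Acta2, Pdgfrb, Thy1 and Myh11 higher, and against Control Acta2 and Pdgfrb. The matrix genes Dcn and Lum were not called, at -0.13 and 0.07 against CW (edgeR adjusted p = 0.451 and 0.428), Pdgfra and Cspg4 were under 1 CPM in every library, and Rgs5 was at 0. The 8 myoblast markers, mostly Vim, summed to 3503 to 3526 CPM in ESW, 3237 to 3327 in CW and 3158 to 3393 in Control. The part of either in the laminin values was not tested.

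Within genes, the split between transcripts was estimated by Salmon and is uncertain where transcripts are nearly the same. Lamb2 was carried mainly by NM_012974.1, with 70.2% ± 0.482 of its TPM in ESW, 71.1% ± 0.523 in CW and 71.2% ± 0.462 in Control. In Lamb1 XM_003750137.6 had 68.3% ± 2.38 in ESW, 71.4% ± 5.32 in CW and 71.2% ± 7.13 in Control. Hspg2 was divided between NM_001427438.1, with 67.8% ± 3.66 in ESW, 63.5% ± 0.486 in CW and 64.9% ± 4.88 in Control, and XM_063287775.1. Of the 10 Agrn transcripts, XM_006239542.5 took 86.4% ± 2.704 in ESW, 77.4% ± 11.4 in CW and 81.6% ± 4.93 in Control, and 7 were listed at 0 in every library. The ranges of ESW and Control overlapped for the leading transcripts of Lamb1, Hspg2 and Agrn. For that of Lamb2 they did not, with 69.7% to 70.7% in ESW and 70.8% to 71.7% in Control. CW, at 70.6% to 71.7%, overlapped both. How often transcripts of all genes separate in this way was not counted.

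The pathway around these genes was read from 9 lists with 125 genes, of which 124 were in the table and 101 were tested. The lists were drawn up with earlier results known, so their counts describe the pathway. In ESW against CW 21 of the 101 were called higher and 0 lower by edgeR, with 24 called by DESeq2 and 19 by limma-voom, beside 4.15% higher of all genes. In ESW against Control 16 were higher, beside 4.76% of all genes, and 0 lower. In CW against Control 0 were called by edgeR, DESeq2 or limma-voom, beside 0.177% of all genes called by edgeR. At an unadjusted edgeR p under 0.05 there were 11 of the 101, beside 1452 of all 14706 genes.

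Among basement membrane collagens 3 of 8 were called higher in ESW against CW, with a list median of 0.16, and 1 of 8 in ESW against Control, with a median of 0.14. Col4a1 and Col4a2, the 2 chains of the common type IV collagen, were higher by 0.21 each (edgeR adjusted p = 0.0221 and 0.0115), and they were abundant, at 388 to 526 and 288 to 381 TPM. Col15a1, a collagen that links basement membrane to the interstitial matrix, was higher by 0.28 (edgeR adjusted p = 0.0035). It was also lower in CW than in Control in every library, at -0.16 (edgeR adjusted p = 0.261, not called). In ESW against Control it was at 0.11 and not called, and the 1 collagen called there was Col4a2. In the list of other components 4 of 12 were higher in ESW against CW and 2 of 12 in ESW against Control (medians 0.10 and 0.09). They were Sparc, a collagen-binding glycoprotein, at 0.14, Smoc1 at 0.20, the laminin-like netrin Ntn4 at 0.20 and Ecm1 at 0.17 in ESW against CW, with edgeR adjusted p from 0.0146 to 0.0477. Ntn4 and Ecm1 were the 2 called in ESW against Control, and Sparc and Smoc1 were not. The 3 tested chains of other laminins had 0 calls in either comparison by edgeR (1 at an unadjusted p under 0.05 in each), and Lama3 had values of -0.16 against CW and -0.13 against Control.

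Receptors had the most calls of any list, with 6 of 15 higher in ESW against CW and 4 of 15 in ESW against Control (medians 0.17 and 0.08). Dag1, dystroglycan, was higher by 0.21 in ESW against CW (edgeR adjusted p = 0.0034). Itga7 and Itga3, the alpha subunits of laminin-binding integrins, were higher by 0.17 and 0.18 (edgeR adjusted p = 0.0104 and 0.0142), and Ddr1, a collagen receptor kinase, by 0.17 (0.0327). Itga6, another laminin receptor subunit, was at 0.07 and did not pass (edgeR adjusted p = 0.498). The dystrophin complex inside the membrane had 0 of 12 genes called in ESW against CW by edgeR (1 at an unadjusted p under 0.05) and a median of 0.00.

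Enzymes that modify the proteoglycans were also partly higher. In heparan sulfate synthesis 4 of 16 genes were called in ESW against CW and 3 of 16 in ESW against Control (medians 0.12 and 0.11). The chain polymerase subunit Ext1 and the sulfotransferases Hs6st1 and Ndst1 were higher by 0.17, 0.20 and 0.17 in ESW against CW, with edgeR adjusted p from 0.0103 to 0.0265. Ext2, the other polymerase subunit, was higher in ESW against Control, at 0.15, and did not pass against CW, at 0.10 (edgeR adjusted p = 0.0965). Of 11 proteases and inhibitors, the secreted protease Htra1 and the metalloproteinase inhibitor Timp2 were higher in ESW against CW, at 0.12 and 0.13 (edgeR adjusted p = 0.0408 and 0.0276; list median 0.13). In ESW against Control 3 were higher, the third being the gelatinase Mmp2 at 0.89 (median 0.12), which had 0.831 to 2.38 TPM. The agrin receptor list had 0 of 7 called in either by edgeR (0 at an unadjusted p under 0.05): Lrp4 and Musk, which receive the agrin signal, were at 4.90 to 5.995 and 5.13 to 6.49 TPM.

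The genes whose pattern over the 9 libraries was most like that of Lamb2 were Chst14, Ltbp3, Mapre3, Mtss2 and Eng. Likeness was the root mean square difference of log2 CPM centred on each gene's mean, over 9000 other genes of at least 10 CPM, and it was 0.0355 for Chst14 and 0.0409 for Eng. Ltbp3, which binds latent TGF-beta, had 141 ± 5.48 CPM in ESW, 121 ± 2.04 in CW and 114 ± 3.37 in Control. Of the basement membrane genes Lama5 was nearest to Lamb2, at 0.075 and rank 219, followed by Lamb1 at 0.0838 and rank 410, and Nid2 was farthest, at 0.1125 and rank 1534.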

How the data were processed

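Per the submitters' processing notes, reads were assigned to transcripts with Salmon 1.10.3, and DESeq2 was used without a version named; build, annotation release and bias options are not given in the sources used here. The deposited estimated counts are fractional and were summed per RefSeq symbol (114122 of 114122 transcripts matched to the GRCr8 gene table) and rounded. The TPM values, deposited by the authors, are scaled to the same total in every library. Another kind of deposited value is the effective length in bases.

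The test was edgeR 4.0.16 (quasi-likelihood, TMM, filterByExpr, R 4.3.3) fitted to all 9 libraries by group (6 residual degrees of freedom) and kept 14706 genes. P-values were adjusted by Benjamini-Hochberg over these, with a threshold of 0.05. The fit was tested on simulated data. Alternatives used DESeq2 1.42.0, limma 3.58.1, other filters, scalings and offsets, and left out each library. The labels do not say that replicates were separate cultures. The p-values set group differences against the spread of these samples within groups, which may be technical only. Whether counting used strand is not given, so overlapping antisense genes may share reads.

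The 10 genes, the lists and the naming rule were chosen with earlier results of these data known. Up to 4 called genes with the smallest p were named per list, besides abundant ones and 5 genes like Lamb2. Lama1, Lama3, Lamb3, Lamc3, Itga6, Lrp4 and Musk are named outside that rule, after their values were seen. Some genes of the lists are not reported here.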

Additional observations from a re-analysis of the deposited data

How the results depend on the processing

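In the counts of genes called, 1183 in ESW against Control became 86 and 149 with limma on log2(TPM + 1) and log2(TPM + 0.1) and 440 with effective length offsets, and 397 to 1544 when 1 library was left out (397 without ESW replicate 3, 534 without Control replicate 2, 590 without Control replicate 3). In ESW against CW, 1197 became 0 (2776 at an unadjusted p under 0.05) and 18 on TPM, and 314 to 1486 when 1 library was left out (571 and 314 without ESW replicates 2 and 3, 407 and 474 without CW replicates 2 and 3). In CW against Control, 26 became 273 without a filter, 71 with DESeq2, 0 and 0 on TPM (933 and 907 unadjusted), 1 with length offsets and 16 with only 2 groups, and 5 to 51 when 1 library was left out: 5 without CW replicate 3, 51 without Control replicate 3, and 11 to 17 without CW replicate 1 or 2 or Control replicate 1 or 2.

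Of the basement membrane genes, 5 called in ESW against Control became 0 and 0 in the limma fits on TPM (7 unadjusted in each) and 2 with length offsets, and 2 to 7 when 1 library was left out: 2 without Control replicate 2, 3 without ESW replicate 2 and 2 without ESW replicate 3. In ESW against CW, 2 became 4 without a filter, with DESeq2, with limma-voom and with only 2 groups, 6 after the length trend was removed, and 0 and 0 on TPM (4 unadjusted in each). It was 1 to 4 when 1 library was left out: 4 without Control replicate 1, and 1 when ESW or CW lost replicate 2 or 3. In CW against Control, 0 became 2 without a filter and 1 with DESeq2, and 0 to 2 when 1 library was left out (2 without Control replicate 3).

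Signs changed in CW against Control only, for uncalled genes: Lamb1 to -0.0059, -0.0060 and -0.0144 and Lamc1 to -0.0028, -0.0028 and -0.0112 on TPM with either pseudocount and with length offsets. Without 1 library Lamc1 ran from -0.0144 to 0.0438, Nid1 from -0.0804 to 0.0197 and Nid2 from -0.0441 to 0.0081. The ratio of Lamb2 to Lamb1 in estimated counts was 0.738 in ESW, 0.709 in CW and 0.654 in Control, where the division by length is missing. Other causes were not tested. The replicate numbers did not pair the libraries (correlations of same-numbered libraries from -0.118 to 0.04). With the replicate block 1 of the basement membrane genes was called in ESW against CW, Lamb2, with 5 and 0 in the other comparisons. Groups of 3 libraries limit the precision of changes as small as these.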
